A study of Mus musculus with 6 samples.

Results

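The Krüppel-like factors (KLFs) examined here were 10 genes, Klf2, Klf3, Klf4, Klf5, Klf6, Klf7, Klf9, Klf10, Klf13 and Klf15, and the regions described are every CUT&Tag region that the deposited tables assigned to one of them by gene symbol. All 10 genes had a region in at least 1 of the 4 tables, with 79 of the 456310 rows in all. By position these were 50 different T set regions and 13 different S set regions. CUT&Tag cuts chromatin around an antibody's target, so the regions mark where that target sat near the KLF genes and do not measure KLF transcripts. The 6 libraries came from primary mouse cardiac fibroblasts, and 3 belonged to a T set and 3 to an S set. The letters were taken to stand for TAZ, a co-activator that reaches DNA through TEAD factors, and for SRF, the factor that binds CArG boxes; the labels do not name the antibody, and this reading was not tested. Each set had 1 library labelled NC, 1 labelled TGF-b and 1 labelled TGF-b with an siRNA. The labels name the siRNA SiTAZ in the T set and SiSRF in the S set, whereas the text of the study describes siRNA against Piezo2 followed by TGF-b, so its target is left unnamed here. The series' design text mentions Tet3 deletion with a Cre virus, which no sample label repeats. The study's methods give a C57BL/6 J background for its mouse strains. The number of animals pooled was not given in the sources used here. The labels name no siRNA for the NC and TGF-b libraries, whereas the study's text names a scrambled siRNA as the control of its CUT&Tag experiment.

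KLFs are transcription factors with zinc fingers at the C-terminus that recognise GC boxes and CACCC boxes, and they share these sites with the SP factors. Their N-terminal parts differ and recruit different partners. KLF3 recruits the corepressor CtBP. KLF2, KLF4, KLF5, KLF6 and KLF7 act largely as activators that engage acetyltransferases, and KLF9, KLF10 and KLF13 bind the corepressor SIN3A. KLF10 is also known as a TGF-b-inducible early gene, KLF4 and KLF5 control smooth muscle and fibroblast states, and KLF15 restrains hypertrophic and fibrotic programs in the heart.

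The stretches just upstream of 5 KLF genes are shown because, of the genes with a RefSeq promoter, theirs had the highest mean density in the T set table of TGF-b over NC. Klf5 and Klf10 had no entry. They are the RefSeq sequences (GRCm38.p6), 5′ to 3′ on the strand of the gene, of the 250 bases before the RefSeq start, with the 3′ end removed where an annotated UTR began. The Klf3 stretch of 117 bases ended directly before the transcript start that the tables use. Capitals mark GGGCGG (the GC box) and CCACCC (the CACCC box) on either strand, which overlap once in Klf13.
Klf3: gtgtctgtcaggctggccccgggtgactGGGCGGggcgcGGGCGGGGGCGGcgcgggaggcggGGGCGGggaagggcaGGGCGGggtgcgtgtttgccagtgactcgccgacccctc
Klf13: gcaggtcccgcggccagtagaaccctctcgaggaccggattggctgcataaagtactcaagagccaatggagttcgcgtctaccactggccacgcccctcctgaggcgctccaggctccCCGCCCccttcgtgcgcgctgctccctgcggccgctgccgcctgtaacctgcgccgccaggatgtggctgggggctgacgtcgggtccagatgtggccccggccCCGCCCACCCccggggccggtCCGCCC
Klf7: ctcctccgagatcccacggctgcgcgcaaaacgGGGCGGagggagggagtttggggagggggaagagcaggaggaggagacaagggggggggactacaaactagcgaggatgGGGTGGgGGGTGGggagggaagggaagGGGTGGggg
Klf9: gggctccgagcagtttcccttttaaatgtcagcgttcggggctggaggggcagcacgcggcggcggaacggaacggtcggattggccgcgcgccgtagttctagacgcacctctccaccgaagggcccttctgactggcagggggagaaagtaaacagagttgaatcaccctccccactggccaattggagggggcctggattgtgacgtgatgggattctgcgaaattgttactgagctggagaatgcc
Klf6: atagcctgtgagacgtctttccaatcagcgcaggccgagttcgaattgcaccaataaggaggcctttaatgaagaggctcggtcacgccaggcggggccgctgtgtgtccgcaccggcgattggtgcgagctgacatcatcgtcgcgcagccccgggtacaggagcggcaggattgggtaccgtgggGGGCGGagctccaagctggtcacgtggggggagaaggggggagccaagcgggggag
Of 8 KLF genes with a RefSeq promoter in the table (Klf2, Klf3, Klf4, Klf6, Klf7, Klf9, Klf13 and Klf15), 7 had a GC box in the 250 bases, against 32.7% of 32851 promoters of the same length. A CACCC box was found in 4 of the 8, against 28.1% of all promoters. The printed Klf3 stretch held 5 GC boxes and was 79.5% G or C. The printed Klf13 stretch held 3 GC boxes and those of Klf7 and Klf6 held 1 each. Klf9, at 59.6% G or C, was the gene with none. The TEAD core CATTCC occurred in 12.6% of all promoters and the SRF CArG box in 1.47%, and these letters were in none of the 8 KLF windows on either strand. These matches describe the letters only.

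The tables used GRCm39, and all positions below are in that build. Each value rests on reads in a window of 2 kb around a summit, and reads of neighbouring summits are partly the same reads. The normalized density is (reads plus 1) per 2 kb after rescaling by the authors within each table, and the ratios below are log2 ratios of these densities, with an exact (Clopper-Pearson) 95% interval from the reads that covers counting error only. With 1 library for each treatment there was nothing to test a treatment against, and each difference is one between 2 libraries. The TGF-b library of a set is part of both comparisons of that set. Called regions numbered between 53121 and 134584 in the T set libraries and between 25891 and 28738 in the S set libraries, with a median of 7 to 13 reads. Over all regions, the median log2 ratio of TGF-b over NC was -0.65 for the T set and -0.20 for the S set, and that of the siRNA over TGF-b was 0.97 and -0.21. A region called in 1 library only entered its table through the library where it was high, which its interval does not allow for. The T set table of TGF-b over NC held 117769 regions called only in NC and 43854 only in TGF-b. That of the siRNA over TGF-b held 126997 only with the siRNA and 45534 only in TGF-b. Regions annotated as promoters within 1 kb of a TSS had T set medians of 0.16 and -0.08. Medians and shares of all regions, and centred values, thus depend on which library had more called regions.

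KLF regions lay near transcription start sites (TSS) more often than all regions assigned to a gene. In the T set table of TGF-b over NC, 17 of 30 KLF regions (56.7%) were within 1 kb of a TSS, against 17.1% of all regions assigned to a gene. For the S set these were 3 of 8 (37.5%), against 19.3%. KLF regions of the T set held a median of 22 reads in NC and 19 in TGF-b, whereas all regions held medians of 9 and 5. The 30 T set regions were the regions of Klf3 (7), Klf7 (5), Klf13 (4), Klf2, Klf6, Klf9 and Klf15 (3 each) and Klf10 (2). Klf4 and Klf5 had none there. The 8 S set regions belonged to Klf2 and Klf9 (2 each) and to Klf3, Klf5, Klf7 and Klf13 (1 each).

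The main promoters of 7 KLF genes were called in the T set and could be read in all 3 libraries. In the NC library, Klf7 and Klf13 had 46 reads each, Klf10 had 38, Klf9 had 37, Klf6 had 33, Klf3 had 27 and Klf2 had 22. In the TGF-b library the order was Klf3 with 126 reads, Klf13 with 79, Klf10 with 60, Klf9 with 50, Klf7 with 48, Klf6 with 45 and Klf2 with 33. In the siRNA library Klf6 had 49 reads, Klf9 and Klf13 43 each, Klf7 39, Klf3 31, Klf10 29 and Klf2 23. Klf3 was thus next to last among these promoters in NC, first in TGF-b and between Klf7 and Klf10 with the siRNA. Reads of neighbours in the NC and siRNA orders had overlapping exact Poisson 95% intervals. In the TGF-b library the interval of Klf3, 105 to 150.0, stood above that of Klf13, 62.5 to 98.5, and the other neighbours overlapped.

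**Figure D1:**
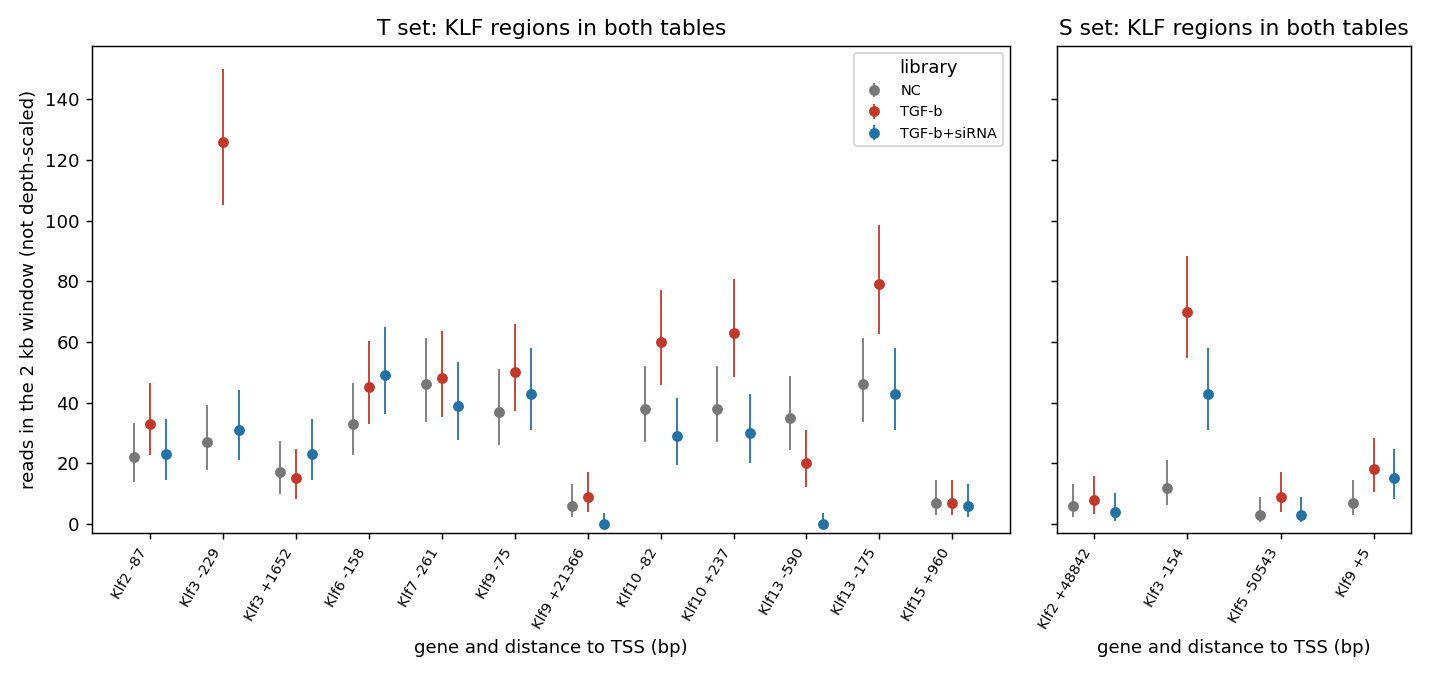
Reads in the 2 kb window (y axis, not scaled for depth) at the 12 T set and 4 S set KLF regions with the same coordinates in both tables, by gene and distance to the TSS. Points are single libraries (NC grey, TGF-b red, TGF-b with siRNA blue) with exact Poisson 95% intervals; the Klf3 promoter has 27, 126 and 31 reads (T set) and 12, 70 and 43 reads (S set).

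With TGF-b, the Klf3 promoter gained the most signal of all KLF regions in both sets. The T set region at chr5:64960194-64960811, from 537 bases upstream to 80 bases downstream of the start of transcript ENSMUST00000165536, was called in all 3 libraries. Densities were 14.2 for NC and 62.5 for TGF-b, so that the log2 ratio was 2.14 (1.57 to 2.83), or 4.40-fold. The S set region at chr5:64960351-64960804 lay inside it and had 12 reads in NC and 70 in TGF-b. It was called in TGF-b and not in NC, a choice that favoured the rise and that its interval does not allow for. Its densities were 7.83 and 29.5, which gives a log2 ratio of 1.91 (1.11 to 3.03), or 3.77-fold. Both intervals lay above 0. Without the rescaling by the authors the log2 ratios were 2.18 and 2.45, and after centring on the table's median they were 2.79 and 2.11. Core promoters are the regions annotated as promoter within 1 kb of a TSS, a class without those annotated as 5′ UTR, exon or intron. Of these, 662 of 10109 (T set) and 174 of 3066 (S set) had a log2 ratio at least as high.

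The other Klf3 regions of the T set were weaker and did not move together. Upstream of the gene, inside the annotated gene Gm20033, a region 2282 bases before the start had 11 reads in NC and 0 in TGF-b. It was at least 2.59-fold lower when the 0 is set to a floor of 3 reads, a bound that takes the 11 reads as exact, and the interval of the log2 ratio, which counts their error too, reached up to -1.11. A second one, 28099 bases upstream, had 12 reads and 1 read, a log2 ratio of -2.52 (-8.82 to -0.65), whose interval ended at 0.0027 when centred. Inside the gene, 7936 bases after the main start and 1016 bases before the start of a shorter transcript, reads were 12 in NC and 31 in TGF-b, with a log2 ratio of 1.35 (0.42 to 2.52). The 3 regions further in had 21 and 15, 17 and 15, and 7 and 5 reads, and each interval included 0. The S set had no called region at Klf3 other than the promoter. Both upstream regions were called only in NC, the library where they were high, and their intervals do not allow for that choice. The internal region with 31 reads in TGF-b was called only in NC as well. So signal was higher at the promoter and at 1 internal region, while the lower upstream values were favoured by the call.

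**Figure D2:**
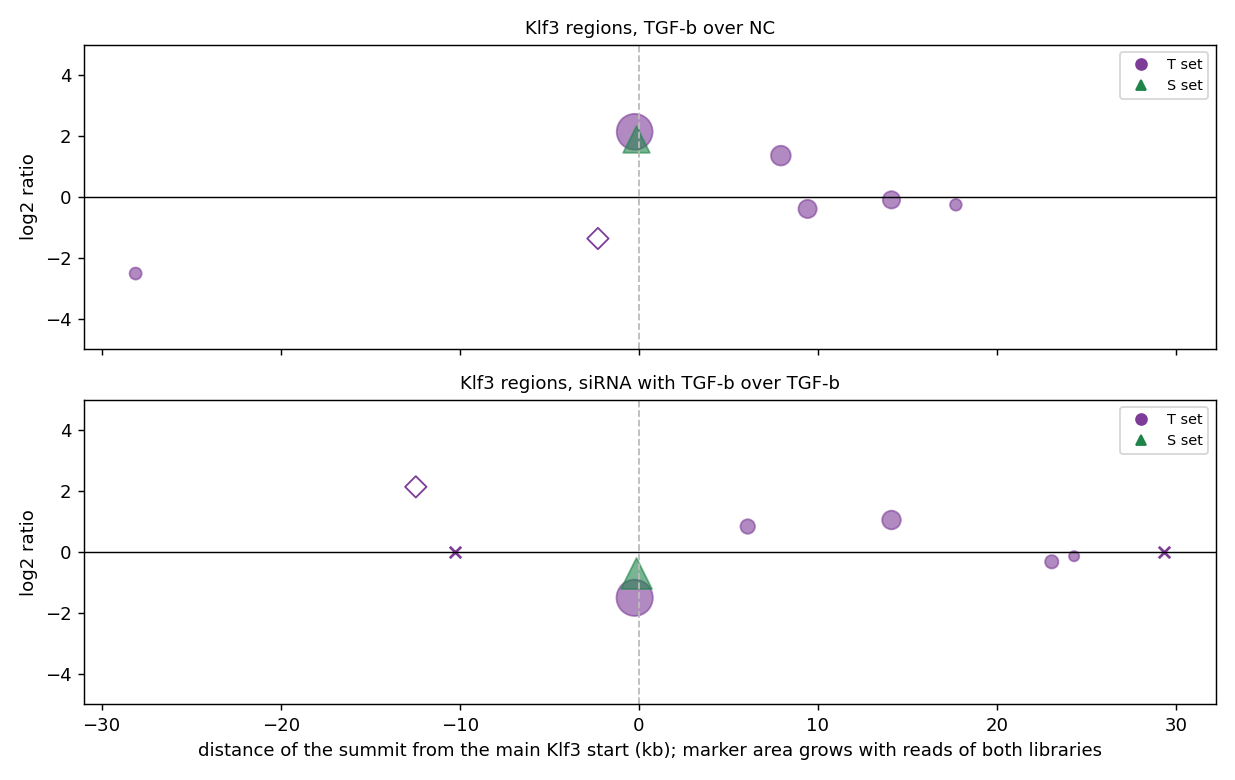
Log2 ratio of normalized density (y axis) at each Klf3 region against the distance of its summit from the main Klf3 start in kb (x axis), above for TGF-b over NC and below for the siRNA with TGF-b over TGF-b. Filled circles (T set) and triangles (S set) grow with the reads; open diamonds are bounds with 0 reads set to 3, and crosses at 0 mark regions with 3 reads or fewer in both libraries. The promoter stands at 2.14 and 1.91 above and at -1.50 and -0.69 below.

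The genes whose products bind SIN3A showed smaller differences, all toward higher signal in TGF-b at their main promoters. As the authors scaled the values, 0 of their 9 T set regions were at least 2-fold higher and 0 lower, where 17.3% and 42.1% of all regions were. Centred, 6 were higher and 0 lower, where 26.7% and 27.2% were. The main T set promoters of Klf9, Klf10 and Klf13 lay at the 59.1th, 66.6th and 69.9th percentiles of all core promoters. Klf10 had 2 T set regions, at chr15:38299289-38299528 and chr15:38299743-38299862, which lie within 1 window and share most reads. Reads were 38 in NC and 60 in TGF-b at the former, with a log2 ratio of 0.62 (0.02 to 1.26), and 38 and 63 at the latter, with 0.69 (0.10 to 1.32). The main Klf13 promoter at chr7:63588684-63588993 had 46 reads in NC and 79 with TGF-b, and its log2 ratio was 0.72 (0.19 to 1.29). A Klf13 region of the S set, 661 bases upstream of the same start at chr7:63589276-63589372, had 16 and 32 reads, with 0.41 (-0.45 to 1.42). The Klf9 promoter at chr19:23118448-23118583 had 37 and 50 reads in the T set, with 0.41 (-0.22 to 1.07), and the S set region at chr19:23118506-23118685, annotated as 5′ UTR, had 7 and 18 reads, with 0.68 (-0.53 to 2.29). The intervals of Klf10 and of Klf13 in the T set excluded 0, and those of Klf9 and of Klf13 in the S set did not. The Klf10 regions and the S set Klf9 region were called only in TGF-b, the library where they were higher. The main T set Klf13 promoter was called in both libraries. The T set value of Klf9 was 1.06 (0.43 to 1.72) when centred, and without the rescaling the S set values were 1.25 (0.04 to 2.86) for Klf9 and 0.96 (0.09 to 1.96) for Klf13.

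Inside Klf13, 13455 bases after the main start, a T set region sat 590 bases before the start of a shorter transcript, at chr7:63575153-63575264. Reads were 35 in NC and 20 with TGF-b, and the log2 ratio was -0.75 (-1.65 to 0.05), and a neighbour that shares its window had 35 and 22. A region at the third Klf13 start, 157 bases upstream of it, had 25 and 27 reads, with 0.13 (-0.70 to 0.98). The starts of this gene therefore ranged from -0.75 to 0.72 in 1 table.

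The activator group differed within counting error at its main promoters with TGF-b. Of its 11 T set regions, 3 (27.3%) were at least 2-fold lower and 0 higher, where 42.1% and 17.3% of all T set regions were. Centred, 1 was lower and 3 were higher, where 27.2% and 26.7% were. The Klf2 promoter at chr8:73072643-73072938 had 22 reads in NC and 33 with TGF-b, and its log2 ratio was 0.59 (-0.21 to 1.46). The Klf6 promoter at chr13:5911105-5911541 had 33 and 45 reads, with 0.43 (-0.24 to 1.13), and the Klf7 promoter at chr1:64160751-64161071 had 46 and 48, with 0.04 (-0.58 to 0.65). All 3 intervals included 0 as the authors scaled the values. Centred on the median of the table, the log2 ratios were 1.24 (0.44 to 2.11), 1.08 (0.41 to 1.79) and 0.69 (0.07 to 1.30), all above 0. Among all core promoters, whose median was 0.16, Klf2, Klf6 and Klf7 lay at the 65.8th, 59.8th and 45.3rd percentiles. The Klf7 promoter was thus below the middle of that class. A second Klf7 region, 67 bases after the start of another transcript, shares reads with that promoter and had 40 and 48. The Klf6 region at chr13:5916221-5916393, annotated as intron, had 57 reads in NC, the most of any KLF region in that library, and 9 in TGF-b. Its log2 ratio was -2.50 (-3.83 to -1.60), or 5.65-fold lower. A second Klf6 region, 1371 bases upstream of the start, had 30 and 9 reads, with -1.57 (-2.93 to -0.56). A Klf7 intron region at chr1:64158068-64158227 had 22 and 7 reads in the T set, with -1.43 (-3.03 to -0.29). The S set region over it had 7 and 2 reads, with -2.02 (-5.72 to -0.02), an interval that included 0 without the rescaling or when centred. Centred, the intervals of the upstream Klf6 region and of the T set Klf7 intron also included 0. The intron and upstream Klf6 regions and the Klf7 intron regions of both sets were called only in NC, the library where they were high. That choice favoured lower values in TGF-b, and the intervals do not allow for it.

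Klf15 had few reads. Its 3 T set regions had 7 and 7, 10 and 3, and 8 and 3 reads in NC and TGF-b, and every interval included 0. Klf5 had 1 S set region, 50543 bases upstream of its start and inside the gene Pibf1, with 3 and 9 reads. The distal Klf2 regions lay 33067 to 50939 bases from its start, inside introns of Eps15l1, with 4 to 8 reads in each library. Their assignment to Klf2 or Klf5 is by nearest start only.

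**Figure D3:**
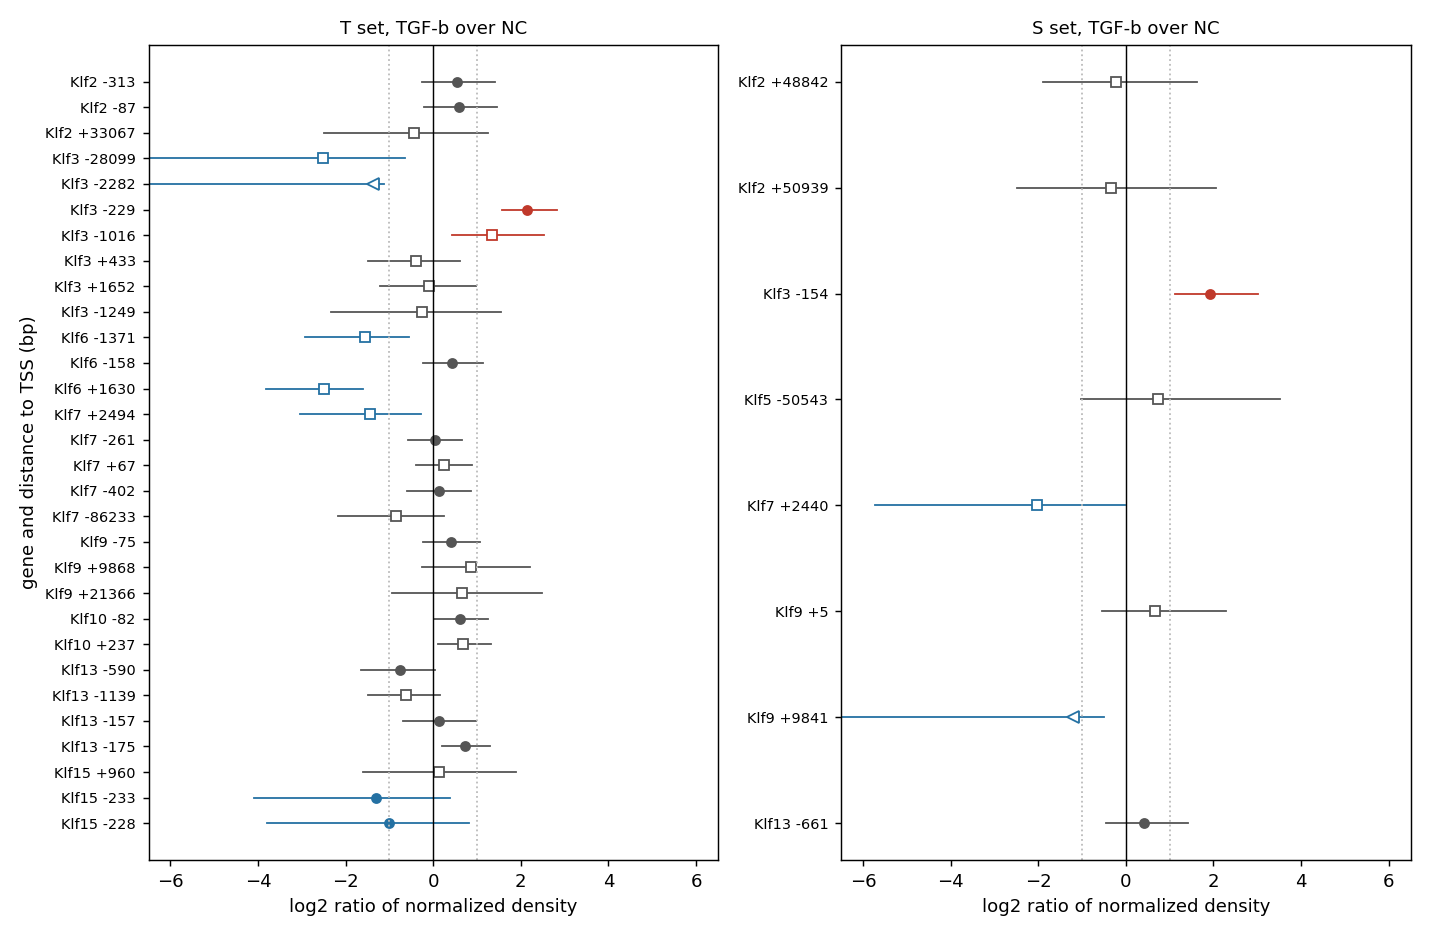
Log2 ratio of normalized density, TGF-b over NC (x axis), for every KLF region of the T set (left, 30) and S set (right, 8), ordered by gene and labelled with the distance to the TSS. Filled circles are core promoters and open squares other regions, lines are exact 95% intervals (clipped at the frame), triangles are bounds with 0 reads set to 3, dotted lines mark 2-fold, and red or blue marks densities at least 2-fold higher or lower. Only Klf3 regions are red in either set.

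Counted over all members, 2 of 30 KLF regions in the T set were at least 2-fold higher with TGF-b, both of Klf3, where 17.3% of all regions were. At least 2-fold lower were 7 of 30, namely 2 each of Klf3, Klf6 and Klf15 and 1 of Klf7, where 42.1% of all regions were. Among S set regions 1 of 8 was higher, against a background of 17.4%, and 2 of 8 were lower, against 26.7%. The KLF regions had a median log2 ratio of 0.08 (T set) and 0.09 (S set), each above the median of its table. Centred on that median, 11 T set regions were higher and 3 lower, where 26.7% and 27.2% of all regions were, and without the rescaling 3 S set regions were higher, where 31.3% were. Promoters take a larger share of KLF regions than of all regions, so core promoters were also compared among themselves. The 13 KLF core promoter regions of the T set had a median log2 ratio of 0.41, and all 10109 had 0.16. At least 2-fold higher were 1 of these 13, against 22.2% of all core promoters, and at least 2-fold lower were 2, against 18.3%. The S set held only 2 KLF core promoter regions.

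**Figure D4:**
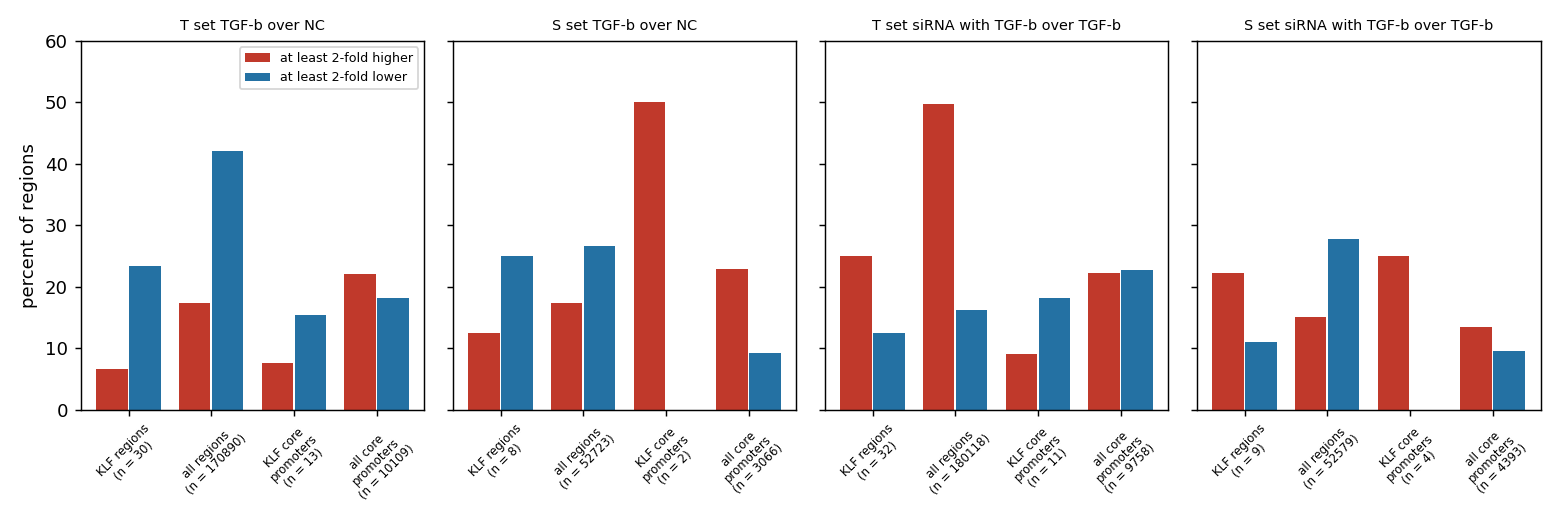
Percent of regions (y axis, from 0) at least 2-fold higher (red) or lower (blue) in each of the 4 tables, for KLF regions, all regions, KLF core promoters and all core promoters, with the number of regions under each pair of bars. In the T set with TGF-b, 6.67% of KLF regions are higher and 23.3% lower, against 17.3% and 42.1% of all regions; groups of 2 and 4 KLF promoters carry little weight.

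In the siRNA library, signal at the Klf3 promoter was lower than in the TGF-b library in both sets. T set reads were 126 with TGF-b and 31 with the siRNA, a log2 ratio of -1.50 (-2.15 to -0.96), or 2.83-fold lower. S set reads were 70 and 43, with -0.69 (-1.29 to -0.14), or 1.62-fold lower. Against the whole T set table, with its median of 0.97, the promoter lay at the 12.8th percentile of all its regions and at the 14.2nd of its core promoters. Its S set region lay at the 35.6th percentile of all regions and at the 15.4th of core promoters. Without the rescaling by the authors the log2 ratios were -1.99 and -0.69, and centred on the median of the table they were -2.47 and -0.48, so the direction was the same under each scaling. The centred S set interval, -1.08 to 0.07, included 0.

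Elsewhere in Klf3, the region in an exon, 14114 bases after the main start, had 15 reads with TGF-b and 23 with the siRNA, and its log2 ratio was 1.05 (0.08 to 2.13), or 0.58 (-0.38 to 1.66) without the rescaling and 0.083 when centred. A region in Gm20033, 12452 bases upstream of the start, was called only with the siRNA, the library where it was high. It had 0 and 12 reads, at least 4.42-fold higher with 0 set to 3 and 12 taken as exact, with an interval from 1.92 upward. The other 5 regions had at most 12 reads in either library, and those intervals included 0.

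At the main promoters of the genes that bind SIN3A, differences with the siRNA were within counting error as the authors scaled the values, but not under each scaling. Klf10 had 60 and 29 reads at one region, with a log2 ratio of -0.54 (-1.26 to 0.09), and 63 and 30 at the other, with -0.56 (-1.27 to 0.06). The Klf13 promoter had 79 and 43 reads in the T set, with -0.38 (-0.96 to 0.16), and the S set region at chr7:63588843-63588927 had 32 and 19, with -0.68 (-1.61 to 0.16). Klf9 had 50 and 43 reads in the T set, with 0.27 (-0.36 to 0.88), a value that became -0.21 without the rescaling and -0.70 (-1.33 to -0.09) when centred. The S set region had 18 and 15 reads, with -0.18 (-1.29 to 0.88), which became 0.033 when centred. Without the rescaling, Klf10 at the former region was -1.02 (-1.74 to -0.39) and Klf13 in the T set -0.86 (-1.45 to -0.32), and centred they were -1.51 (-2.23 to -0.88) and -1.35 (-1.93 to -0.81). These intervals excluded 0, so both calls depended on the scaling, whereas the direction did not. At Klf9 the direction depended on it.

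The internal Klf13 region with 35 reads in NC and 20 in TGF-b had 0 reads with the siRNA. With 0 set to 3 and the 20 taken as exact, its density was at least 3.85-fold lower than in TGF-b, and the interval reached up to -1.86. A Klf9 intron region, 21366 bases after the start, had 6, 9 and 0 reads in NC, TGF-b and siRNA, at least 1.84-fold lower than in TGF-b on the same terms, with an interval up to -0.54. Both this region and the internal Klf13 region were called only in TGF-b. That choice favoured lower values with the siRNA, and the intervals do not allow for it.

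In the activator group, the T set promoters had 33 and 23 reads for Klf2, with a log2 ratio of -0.03 (-0.88 to 0.77), 48 and 39 for Klf7, with 0.19 (-0.47 to 0.82), and 45 and 49 for Klf6, with 0.60 (-0.01 to 1.22). Centred on the median of the table these were -0.999, -0.78 and -0.37, so the positive values of Klf7 and Klf6 turn negative against the table, and the centred intervals of Klf2 (-1.85 to -0.21) and Klf7 (-1.44 to -0.15) excluded 0. Among all core promoters, whose median was -0.08, Klf2, Klf7 and Klf6 lay at the 51.4th, 58.7th and 69.3rd percentiles. They were thus not low for promoters. The S set Klf6 region at chr13:5911369-5911460 had 8 and 9 reads, with 0.26 (-1.27 to 1.85). The S set Klf5 promoter at chr14:99535918-99536090, 123 bases upstream of the start, was called only with the siRNA, which favoured a higher value there. It had 10 reads in TGF-b and 24 with the siRNA, a log2 ratio of 1.26 (0.22 to 2.56). The distal Klf5 region in Pibf1, called only in TGF-b, had 9 and 3. Klf4 had a single region in any table, 6169 bases past its start, with 9 and 4 reads in the T set. The T set Klf15 promoter at chr6:90438967-90439049 was likewise called only with the siRNA. It had 11 and 20 reads, with 1.27 (0.20 to 2.54), which became 0.81 (-0.27 to 2.07) without the rescaling and 0.30 when centred.

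KLF regions not annotated as promoters had few reads, with medians of 4 and 4 in the T set and 9 and 8 in the S set. Of these, 4 of 21 T set and 1 of 5 S set regions still lay within 1 kb of a TSS. Of the 21 T set regions outside promoters, 17 (81.0%) were called only with the siRNA, where 71.1% of all gene regions outside promoters were. In the S set 2 of 5 (40%) were, where 53.0% were. A T set region 65919 bases upstream of the Klf7 start, inside the annotated gene Gm28981, had 4 reads with TGF-b and 12 with the siRNA. Its log2 ratio was 1.83 (0.32 to 4.13). An S set region 65813 bases upstream of the same start did not overlap it and had 13 and 14 reads, with 0.18 (-1.01 to 1.40). The Klf2 region in Eps15l1 at chr8:73108511-73108583 had 13 and 4 reads, with -1.03 (-3.32 to 0.45), with intervals of -4.29 to -0.52 when centred and -3.77 to -0.0058 without the rescaling. An S set region in a Klf9 intron, 18590 bases after the start, had 2 and 8 reads, with 1.73 (-0.18 to 5.42). Of these 4 intervals, that of the T set Klf7 region excluded 0, but not without the rescaling (-0.14 to 3.67) or when centred, whereas that of the S set Klf9 region excluded 0 when centred (0.03 to 5.63). The T set Klf7 region and the S set Klf9 region were called only with the siRNA, the library where they were high.

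**Figure D5:**
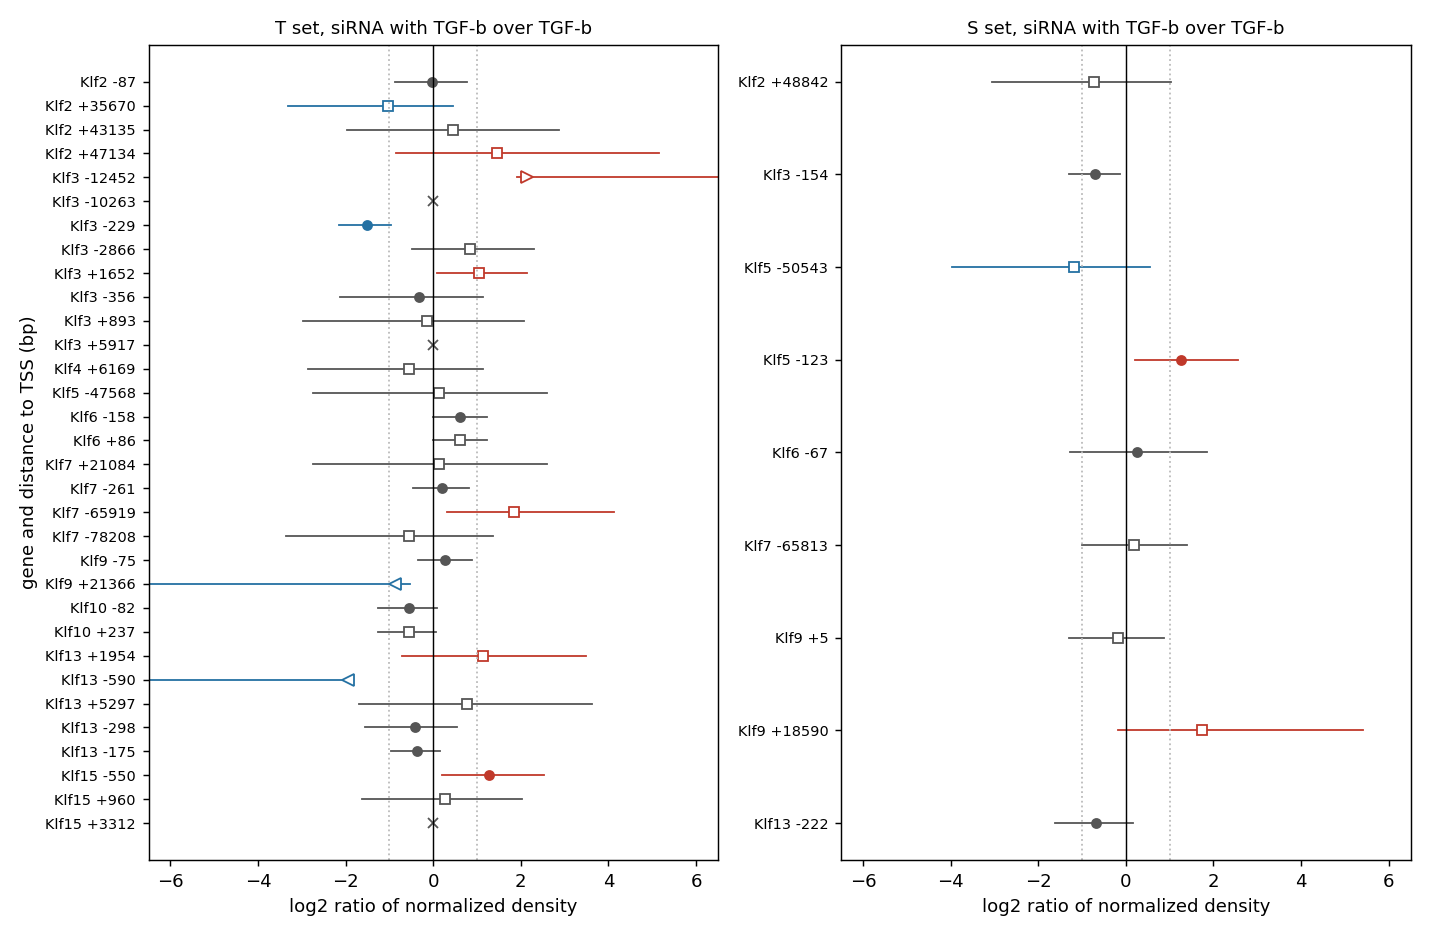
Log2 ratio of normalized density, siRNA with TGF-b over TGF-b (x axis), for every KLF region of the T set (left, 32) and S set (right, 9), labelled with gene and distance to the TSS. Symbols, intervals and colours are as in the plot of TGF-b over NC, and crosses at 0 mark regions with 3 reads or fewer in both libraries. The Klf3 promoter is at -1.50 and -0.69, and the internal Klf13 region is drawn at its bound of -1.95.

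Over all members, 8 of 32 T set regions were at least 2-fold higher with the siRNA, where 49.7% of all regions were, and 4 of 32 were at least 2-fold lower, where 16.2% were. The 8 included 2 regions, of Klf3 and Klf15, with 3 reads or fewer in both libraries. Of the S set regions 2 of 9 were higher, against 15.1% of all regions, and 1 of 9 was lower, against 27.8%. Median log2 ratios of the KLF regions were 0.23 (T set) and -0.18 (S set), but their signs depended on the scaling. The T set median was -0.75 when centred and -0.25 without the rescaling, and the S set median was 0.033 when centred. Centred, 2 T set regions were higher and 12 lower, where 29.2% and 28.9% of all regions were, and without the rescaling 4 were higher and 8 lower, where 38.4% and 21.4% were. The 11 KLF core promoter regions of the T set had a median of -0.32, and all 9758 had -0.08. Of these 11, 1 was at least 2-fold higher and 2 were lower, against 22.2% and 22.8% of all core promoters. Of the 21 KLF regions outside promoters, 7 were higher and 2 lower, against 49.5% and 16.1% of all gene regions outside promoters.

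Both sets had a KLF region at the same place in 4 cases in each pair of tables. In the tables of TGF-b over NC, 4 of 30 T set regions (13.3%) were overlapped by at least 1 bp of an S set region, against 3.98% of all T set regions. Of the KLF core promoter regions 2 of 13 were, against 19.2% of all core promoters. Seen from the S set, 4 of 8 regions (50%) were overlapped, against 12.7% of all S set regions. Of its KLF core promoter regions 1 of 2 was, against 59.6% of all core promoters. The 4 pairs were the promoters of Klf3 and Klf9, the Klf7 intron and an intron region of Klf9. In the tables of the siRNA over TGF-b, 4 of 32 and 4 of 9 regions were paired, against 4.69% and 15.9% of all regions. These were the promoters of Klf3, Klf6, Klf9 and Klf13. Of the KLF core promoter regions 4 of 11 and 3 of 4 were paired, against 28.5% and 62.1% of all core promoters. The pair in the Klf9 intron differed in direction with TGF-b. The T set region, 9868 bases after the start, had 10 and 18 reads, with a log2 ratio of 0.87 (-0.26 to 2.21), or 1.52 (0.39 to 2.86) when centred, and the S set region had 5 and 0, at least 2.32-fold lower with 0 set to 3 and 5 taken as exact. The interval reached up to -0.51, and up to 0.13 without the rescaling. Both regions of this pair were called only in NC, which favoured a lower value in TGF-b.

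Related genes were counted by the same threshold. Of the 7 other KLF genes (Klf1, Klf8, Klf11, Klf12, Klf14, Klf16 and Klf17), 6 had 38 T set regions with TGF-b, of which 6 were at least 2-fold higher and 18 lower. The SP genes, which read the same boxes, had 30 regions in 7 of 9 genes, with 3 higher and 11 lower. The corepressor and acetyltransferase genes that KLFs recruit had 53 regions in 9 of 9 genes, with 9 higher and 16 lower. Genes acting upstream of Klf2 and Klf4 in the MEK5 and CCM pathways had 42 regions in 7 of 10 genes, with 4 higher and 21 lower. Their medians were -0.71, -0.40, -0.08 and -0.94, beside the -0.65 of the table, where 17.3% of all regions were higher and 42.1% lower. For the S set the same lists had 3 higher and 3 lower of 13, 2 and 1 of 12, 3 and 5 of 14, and 3 and 1 of 12 regions, beside 17.4% higher and 26.7% lower of all regions. With the siRNA, the T set counts were 21 higher and 6 lower of 40, 10 and 3 of 25, 27 and 10 of 59, and 33 and 7 of 57, beside 49.7% higher and 16.2% lower of all regions. The S set counts were 1 and 4 of 11, 0 and 2 of 12, 2 and 4 of 16, and 2 and 4 of 12, beside 15.1% and 27.8%.

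Marker genes could be checked only as chromatin regions within 3 kb of a TSS, which do not show expression. In the T set table of TGF-b over NC such regions were found at 4 of 7 fibroblast markers (Col1a1, Col1a2, Dcn and Ddr2, but not Pdgfra, Tcf21 or Thy1), with 174 reads in NC and 134 in TGF-b. They were also found at 4 of 5 cardiomyocyte markers, with 75 and 30 reads, at 3 of 4 endothelial markers, with 90 and 52, and at 2 of 4 macrophage markers, with 103 and 39. With the siRNA the T set sums went from 116 to 53, 33 to 67, 53 to 37 and 22 to 40 reads. Of the same lists, 1 of 7, 2 of 5, 1 of 4 and 1 of 4 markers had a region for TGF-b over NC among S set regions, with at most 29 reads summed per library. In the S set table of the siRNA over TGF-b, 0 of 7 fibroblast markers had a region, while 3 of 5 cardiomyocyte markers had 70 reads in TGF-b and 83 with the siRNA. There 1 of 4 endothelial markers had 11 and 14 reads, and 1 of 4 macrophage markers had 13 and 4. The part of these cell types in the KLF values was not tested.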

How the data were processed

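CUT&Tag was read from 4 deposited tables, each of 2 libraries of a set. According to the study's methods, reads were mapped with Bowtie2 to GRCm39 and peaks called with a tool given as Masc2, whereas the submitters' processing notes name BWA 0.7.12 and mm10. Of 27 KLF transcripts in the tables, 1 had the GRCm38 coordinates and all 27 had the GRCm38 length, so GRCm39 was used. The normalized read density that the authors deposited is a signal, (reads plus 1) per 2 kb window, which they rescaled along a straight line in mean log2 density within each table. It is not scaled to library size, and tables are on separate scales. The tables also hold the authors' ratios and p-values per region, which were not used.

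With the line undone, 99.97% to 99.99% of regions came out as whole reads (tolerance 0.1), and simulated tables gave back their reads. TGF-b reads were equal in both tables at 99.95% or more of the regions with shared coordinates. The log2 ratio was the later over the earlier density, and the threshold was 2-fold. Intervals are exact 95% binomial intervals of the share of reads, shifted by the line. PCR reads are not independent molecules, so intervals and the floor of 3 reads cover counting error only. The total depth of a library is unknown. The text names, for each table, the member region nearest a TSS within 3 kb, the 5 of highest mean density, and the 3 highest and 3 lowest log2 ratios above the median of mean density; other members are described by gene, chosen after their values were seen. Members and lists were chosen with earlier results of these data known. Alternatives were centring on the median, reads without the line, reads of 3 or fewer set to 3, regions above the median of mean density, 1 region per gene and 2 kb, 4-fold, and an overlap of 50%. Python 3.11.15, numpy 2.4.6, pandas 2.3.3 and SciPy 1.17.1 were used.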

Additional observations from a re-analysis of the deposited data

Results flagged for a closer look

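At 2 places the T set and S set regions overlapped and had log2 ratios of opposite sign, with 1 library per treatment in each set. This difference was not tested. In the Klf9 intron, 9868 bases after the start, TGF-b over NC was 0.87 in the T set, on 10 and 18 reads, and -3.22 in the S set, on 5 and 0 reads, a fitted value that rests on the 0. At the Klf9 promoter, the log2 ratio for the siRNA was 0.27 (T set) and -0.18 (S set), and both intervals included 0. The opposite signs there depended on the scaling, since without the rescaling both values were negative (-0.21 and -0.25). When centred they were -0.70 (-1.33 to -0.09, excluding 0) and 0.033.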

How the results depend on the processing

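No paired analysis was possible because each group held 1 library. At the 25 named regions nearest a TSS, removing the rescaling of the authors left every value within its interval, and centring took 9 of 25 outside it. Centring on the median of all regions changed whether the interval included 0 at 25 of 79 KLF regions, and removing the rescaling did so at 11. Centring gave 11 higher and 3 lower T set regions with TGF-b (2 and 7 as reported), where 26.7% and 27.2% of all regions were, 2 higher and 12 lower with the siRNA (8 and 4), where 29.2% and 28.9% were, and 0 lower S set regions with the siRNA (1), where 22.7% were. It moved the median log2 ratios to 0.73 (0.08) and -0.75 (0.23) in the T set and to 0.033 (-0.18) in the S set with the siRNA, so both siRNA medians changed sign. Without the rescaling, the S set had 3 higher regions with TGF-b (1), where 31.3% of all were, and the T set had 4 higher and 8 lower with the siRNA, where 38.4% and 21.4% were, and a median of -0.25, again of opposite sign. Above the median of mean density, 3 of 24 regions were lower in the T set with TGF-b (37.9% of all), 0 of 3 lower in the S set with TGF-b (21.8%), 4 of 20 higher in the T set with the siRNA (47.8%), and 1 higher and 0 lower of 5 in the S set with the siRNA (9.57% and 20.4%). At 4-fold there were 1 higher and 3 lower T set regions with TGF-b (10.3% and 21.4% of all), 0 higher S set regions with TGF-b (4.69%), 2 higher and 2 lower T set regions with the siRNA (29.1% and 9.59%), and 0 higher and 0 lower S set regions with the siRNA (3.79% and 9.19%). Pairs of T set and S set regions fell from 4 to 2 in either direction when both had to be above the median of mean density, which leaves fewer regions. The cause of the other changes was not tested. Setting reads of 3 or fewer to 3, taking 1 region per gene and 2 kb, and an overlap of 50% kept each count within 1.5 times its value. Depth limits the lowest values: 13.3% of KLF regions in the T set with TGF-b, 37.5% in the S set with TGF-b, 37.5% in the T set with the siRNA and 22.2% in the S set with the siRNA had 3 reads or fewer in a library.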
